A study of Mus musculus with 16 samples.

Results

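Clpx and 7 genes of the proteases that work beside it in mitochondria were followed in mouse liver on 16 whole-transcript gene arrays. The 8 genes are Clpx, Clpp, Lonp1, Afg3l1, Afg3l2, Spg7, Yme1l1 and Oma1. Each was read from its probe set that the platform annotation gives to that gene alone. All 8 had such a probe set, and all 8 lay among the 13152 genes that passed the filter on dim signal. These were out of 19938 genes, covered by 21789 probe sets of a single gene. Clpx was chosen by its measured differences in Rassf1a-/- and double-genotype livers against wild type in these same arrays, so its values in every comparison that involves Rassf1a are a description, with no test. The other 7 were added as its family and were tested with all genes.

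Total RNA came from the liver of mice of strain 129 in 4 genotypes with 4 arrays each. These were wild type, Rassf1a-/-, Sav1+/- and the double genotype Rassf1a-/- Sav1+/-. Rassf1a is an isoform of the tumour suppressor gene Rassf1, and Sav1 encodes the scaffold of the Hippo kinases. The labels name no Cre and no tissue-restricted allele, and they state no sex, age, diet or time of day. They do not say whether each array comes from its own mouse, so errors and p-values measure the spread between these arrays, which may be technical.

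Mitochondria break down damaged or surplus proteins with ATP-driven proteases of the AAA family, in which a ring of ATPase modules unfolds a substrate and feeds it to a proteolytic chamber. In the matrix this is done by ClpXP, built from the unfoldase CLPX and the separate peptidase CLPP, and by LONP1, which carries both activities in a single chain. The inner membrane holds the m-AAA protease of AFG3L2, AFG3L1 and paraplegin (the Spg7 product), which faces the matrix, and the i-AAA protease YME1L1, which faces the intermembrane space. OMA1 is a membrane metallopeptidase without an ATPase module that acts beside YME1L1, for example on the fusion protein OPA1. CLPX has a further known role in haem synthesis, since it acts on the first enzyme of that pathway, which in liver is encoded by Alas1.

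The sequences upstream of the start sites are shown for the ClpXP genes and Lonp1, the matrix proteases, because Clpx was high without Rassf1a and its partner and its matrix counterpart were not called. They are reference bases of RefSeq (build GRCm38.p6) from another strain, not read from these mice, and stop before the outermost annotated start of each gene. Capitals mark motif matches. The windows lie at chr9:65294010-65294250 (plus strand) for Clpx, chr17:56990014-56990263 (plus strand) for Clpp and chr17:56626904-56627153 (minus strand) for Lonp1.
Clpx: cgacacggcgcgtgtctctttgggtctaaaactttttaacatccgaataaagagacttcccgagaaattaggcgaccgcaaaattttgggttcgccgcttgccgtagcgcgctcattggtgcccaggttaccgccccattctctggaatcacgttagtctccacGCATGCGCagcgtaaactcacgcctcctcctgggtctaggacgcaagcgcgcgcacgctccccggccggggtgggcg
Clpp: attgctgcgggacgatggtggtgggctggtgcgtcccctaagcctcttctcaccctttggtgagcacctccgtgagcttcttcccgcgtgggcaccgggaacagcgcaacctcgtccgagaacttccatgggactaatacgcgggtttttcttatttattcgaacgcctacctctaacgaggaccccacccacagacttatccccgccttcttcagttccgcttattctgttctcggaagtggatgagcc
Lonp1: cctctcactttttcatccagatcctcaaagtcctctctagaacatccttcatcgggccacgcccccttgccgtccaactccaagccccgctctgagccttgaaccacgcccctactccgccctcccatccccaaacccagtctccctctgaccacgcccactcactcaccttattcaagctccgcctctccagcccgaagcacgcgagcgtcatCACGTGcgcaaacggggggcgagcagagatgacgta

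Motifs were searched on both strands in RefSeq windows of 300 bases, 250 before to 50 after a start site, which 7 of the 8 genes have in the table used; Afg3l2 was not matched. The E-box CACGTG, bound by the clock factors BMAL1 and CLOCK, was found in Lonp1 alone of the 7 genes, 36 bases before the start, and in 7.15% of all 32851 windows. The core GCATGCGC of the site of NRF1, a factor for nuclear genes of mitochondria, was found in Clpx alone, 86 bases before the start site of its window, and in 2.71% of all windows. The printed Clpx sequence, of 241 bases, stops short of that start site. The nuclear receptor motif AGGTCA was found in Afg3l1 (16.3% of all windows). The D-box TTANGTAA (2.32%) and the ATF4 and CHOP element TGATGNAA (3.97%) were found in none of the 7. A match or its absence in so short a window is a description of the letters only.

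A few features of the whole series bear on these values. Array medians over all probe sets lay between 7.20 and 7.51 on the log2 scale. In 5 arrays the Y-linked genes were high and Xist low (Rassf1a-/- replicate 2, Sav1+/- replicates 3 and 4, and double-genotype replicates 1 and 2), while no wild-type array was of this kind. By these genes the 5 arrays read as male and the others as female, so sex was not balanced over the genotypes. Hepatocyte markers were level, with a mean over the 9 markers of 13.04 to 13.36 in all 16 arrays. The mean of 8 Kupffer cell and macrophage markers ran from 9.35 to 10.3 in wild-type, 9.07 to 9.96 in Rassf1a-/-, 9.44 to 10.9 in Sav1+/- and 9.74 to 10.6 in double-genotype livers. In whole tissue, fewer cells of a type and less RNA per cell cannot be told apart.

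Clpx signal was high in both genotypes that lack Rassf1a and low in both that keep it. The 4 wild-type arrays read 9.46, 9.61, 9.29 and 9.63 (log2 signal, in replicate order), and the 4 Sav1+/- arrays read 9.17, 10.15, 9.57 and 9.60. The 4 Rassf1a-/- arrays read 10.96, 10.70, 11.05 and 10.95, and the 4 double-genotype arrays read 10.66, 11.04, 10.74 and 10.69. Every array without Rassf1a thus lay above every array with it, the nearest being Sav1+/- replicate 2 at 10.15 and double-genotype replicate 1 at 10.66.

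The genotype means of Clpx were 9.50 ± 0.16 in wild-type, 9.63 ± 0.40 in Sav1+/-, 10.78 ± 0.18 in double-genotype and 10.92 ± 0.15 in Rassf1a-/- livers (SD, n = 4 each). In this order the neighbours wild type and Sav1+/- overlapped, as did the double genotype and Rassf1a-/-, and the step between Sav1+/- and the double genotype did not. Clpx was 2.67-fold above wild type in Rassf1a-/- livers (+1.42, SE 0.17, on the log2 scale) and 2.44-fold above it in the double genotype (+1.29, SE 0.17), 2 comparisons that share the wild-type arrays. The double genotype against Sav1+/- gave 2.23-fold (+1.16, SE 0.17). That comparison shares no array with Rassf1a-/- against wild type. Its double-genotype arrays are among those by which Clpx was chosen, so it is not an independent repeat.

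For loss of 1 Sav1 copy the Clpx differences were small beside their errors. Averaged over the Rassf1a genotypes the difference was close to 0, with a 95% interval of -0.26 to 0.26 on the log2 scale (adjusted p = 0.993, limma). The wild-type, Rassf1a-/- and double-genotype arrays in it are those by which Clpx was chosen, so this too is a description. Against wild type, Sav1+/- livers differed by +0.13 (SE 0.17, interval -0.24 to 0.49, with the wild-type arrays by which Clpx was chosen), a sign that turned to -0.05 without Sav1+/- replicate 2. The interaction, which asks whether the Rassf1a difference depends on Sav1, was -0.26 (SE 0.25, interval -0.78 to 0.26), a description since Clpx was chosen on differences that enter it. No member passed for the averaged Sav1 effect or the interaction. Of all 13152 genes, 3 passed for the former (0.0228%) and none for the latter in limma, where 1236 had an unadjusted p under 0.05.

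The Y-linked signal differed between the groups, so Clpx was also read in the 11 arrays where it was low. There the means were 9.50 in wild-type (4 arrays), 9.66 in Sav1+/- (2 arrays), 10.99 in Rassf1a-/- (3 arrays) and 10.72 in double-genotype livers (2 arrays). The differences from wild type in a fit of these arrays were +1.49 for Rassf1a-/- and +1.22 for the double genotype. With 2 double-genotype arrays left, Clpx was no longer among the genes called there, and 0 of the 8 members were.

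**Figure D1:**
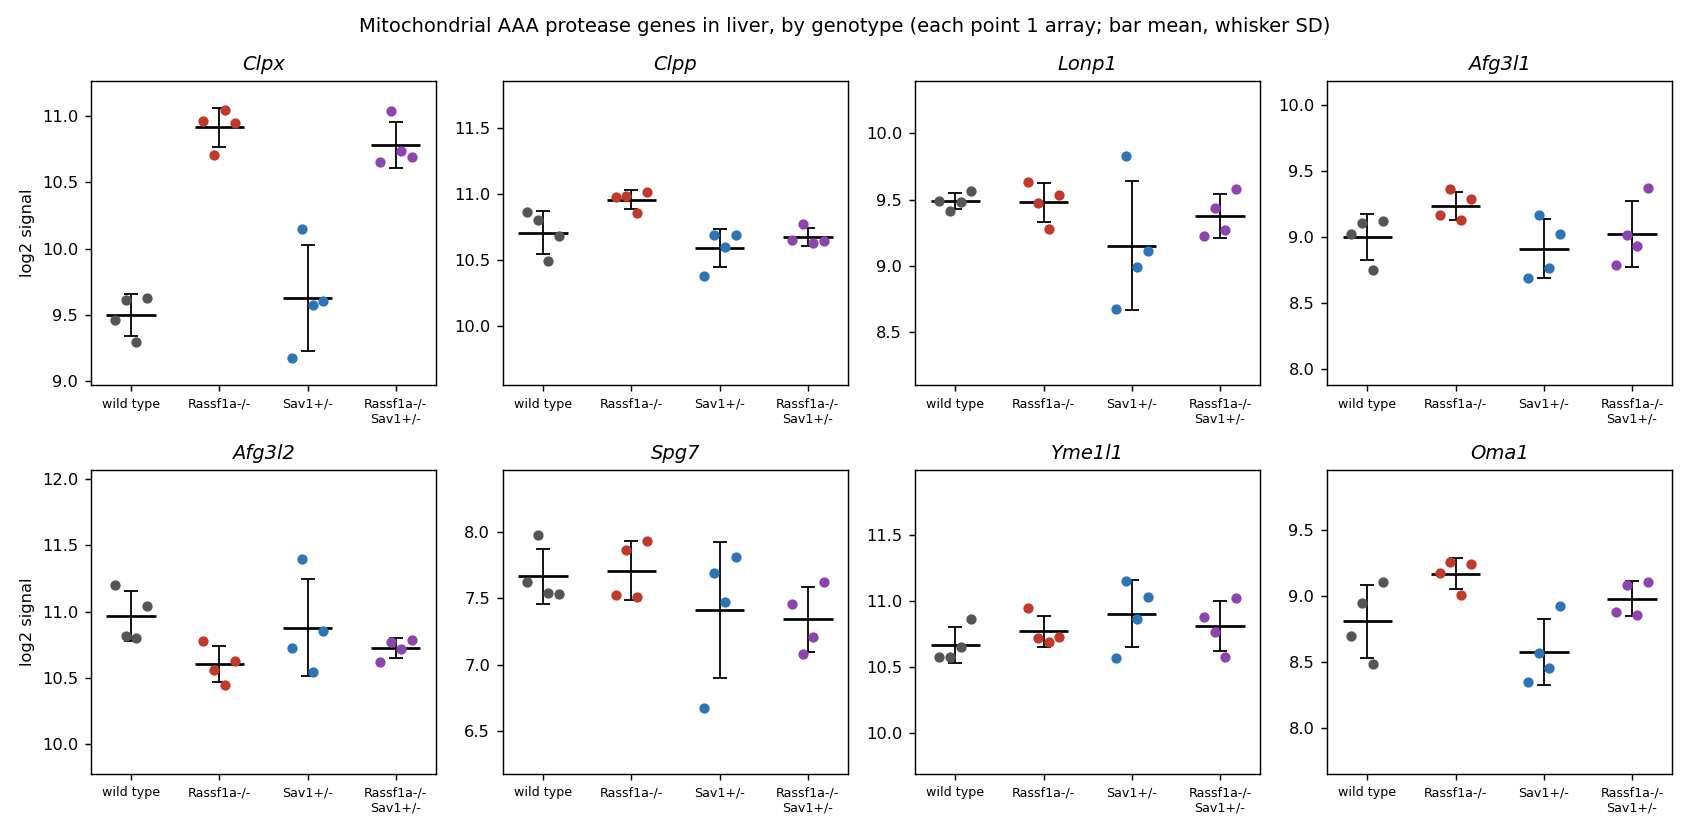
Log2 signal of the 8 genes (1 panel each, vertical axes of equal span) in the 4 genotypes; each point is 1 array, the bar the mean and the whisker the SD of 4 arrays. Clpx lies at 10.66 or above in all 8 arrays without Rassf1a and at 10.15 or below in the other 8, while the genotypes overlap more in the other 7 genes.

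Clpp, the peptidase that CLPX feeds, did not pass in any comparison. Its means were highest in Rassf1a-/- livers (10.96 ± 0.07), then wild-type (10.71 ± 0.16), double-genotype (10.67 ± 0.07) and Sav1+/- livers (10.59 ± 0.15; SD, n = 4 each). The 4 Rassf1a-/- arrays (10.98, 10.98, 10.85 and 11.01) overlapped the wild-type arrays (10.86, 10.80, 10.49 and 10.68) by a narrow margin, with a difference of +0.25 (SE 0.12, adjusted p = 0.479). The double genotype differed from wild type by -0.03 (SE 0.12, interval to 0.21, adjusted p = 0.941). All 4 double-genotype arrays lay below all 4 Rassf1a-/- arrays, by 0.28 on average, without passing (adjusted p = 0.285, limma), where 9.82% of all genes had groups that did not overlap (5.96% in this direction). Within an array, the signal of Clpx over that of Clpp stood 1.17 ± 0.19 (log2 units, SD, n = 4) above the wild-type mean in Rassf1a-/- and 1.32 ± 0.12 above it in double-genotype livers, against 0.25 ± 0.29 in Sav1+/- livers.

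Lonp1, the second matrix protease, was level between wild-type (9.49 ± 0.06) and Rassf1a-/- livers (9.48 ± 0.15, SD, n = 4 each). Its difference of -0.01 had a 95% interval up to 0.39 and changed sign with the scaling (+0.06 with arrays centred on their medians). In the double genotype it averaged 9.38 ± 0.16, or -0.11 against wild type (SE 0.19, adjusted p = 0.865). The Sav1+/- arrays were the most scattered, at 8.67, 9.83, 8.99 and 9.11, with a difference of -0.34 (SE 0.19, adjusted p = 0.640). Replicate 2 gave the highest and replicate 1 the lowest of all 16 Lonp1 values.

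None of the 3 m-AAA protease genes passed in any comparison. Afg3l2, its main catalytic subunit, was lower in Rassf1a-/- livers (10.78, 10.56, 10.45 and 10.63) than in wild-type livers (11.20, 10.82, 10.80 and 11.05), with no overlap. The difference of -0.36 (SE 0.16) did not pass (adjusted p = 0.446, limma). In the double genotype the Afg3l2 arrays (10.62, 10.77, 10.72 and 10.79) again all lay below wild type, at -0.24 (SE 0.16, adjusted p = 0.551). Averaged over the Sav1 genotypes the Afg3l2 difference with Rassf1a loss was -0.26 (SE 0.11, adjusted p = 0.283).

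In Rassf1a-/- livers the 4 arrays of Afg3l1, the paralogue of Afg3l2, (9.16, 9.36, 9.12 and 9.29) lay above the 4 of wild type (9.02, 9.10, 8.75 and 9.12), the nearest pair being equal at 2 decimals. That difference of +0.23 (SE 0.15) did not pass (adjusted p = 0.601). In the double genotype Afg3l1 was +0.02 from wild type, a sign that turned to -0.02 after quantile normalization or median centring. Spg7, the gene of the third subunit, had means of 7.71 ± 0.22 in Rassf1a-/-, 7.67 ± 0.21 in wild-type, 7.41 ± 0.51 in Sav1+/- and 7.34 ± 0.25 in double-genotype livers (SD, n = 4 each). Spg7 was the dimmest against the filter of the 8, reaching it in 13 of 16 arrays, and Sav1+/- replicate 1 read 6.67. Its largest difference from wild type was -0.33 in the double genotype (SE 0.21, adjusted p = 0.547).

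Yme1l1, the gene of the i-AAA protease, ran from 10.57 to 11.15 over all 16 arrays. Its genotype means were 10.66 in wild-type, 10.77 in Rassf1a-/-, 10.81 in double-genotype and 10.90 in Sav1+/- livers, and each neighbour in this order overlapped the next. The difference from wild type was +0.10 (SE 0.14, adjusted p = 0.789) in Rassf1a-/- and +0.24 (SE 0.14, adjusted p = 0.657) in Sav1+/- livers. Averaged over the Sav1 genotypes, its Rassf1a difference of +0.01 had a 95% interval up to 0.22 and turned to -0.03 after quantile normalization.

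Oma1, the stress-activated peptidase of the inner membrane, came nearest to passing among the 7. Its wild-type arrays read 8.70, 8.95, 8.48 and 9.11, and its Rassf1a-/- arrays 9.17, 9.26, 9.01 and 9.24. The Sav1+/- arrays read 8.35, 8.57, 8.46 and 8.93, and the double-genotype arrays 8.88, 9.08, 8.85 and 9.10. Within each Sav1 state the arrays without Rassf1a sat higher, with some overlap in both. The difference was +0.36 (SE 0.15, adjusted p = 0.418) for Rassf1a-/- against wild type and +0.40 (SE 0.15, adjusted p = 0.225) for the double genotype against Sav1+/-. Averaged, Oma1 was 1.30-fold higher without Rassf1a (+0.38, SE 0.11, interval 0.15 to 0.61), with an adjusted p of 0.0763. It passed without Sav1+/- replicate 4 (+0.44, adjusted p = 0.0347) and with the stricter filter on dim signal (adjusted p = 0.0470).

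Over the family, 1 of 8 genes was called in Rassf1a-/- livers and 1 of 8 in the double genotype, in each case Clpx, which was chosen for it (0 of 8 in the double genotype over the 11 low-Y arrays). The background over all 13152 genes was 0.700% for the former (0.433% higher) and 0.821% for the latter (0.335% higher), and nothing is read from these shares. In the averaged Rassf1a comparison 1 of 8 was called, again Clpx, beside 2.23% of all genes (1.76% higher). In the double genotype against Sav1+/- 1 of 8 was called, beside 0.836% (0.669% higher), and against Rassf1a-/- none was, beside 0.00760%. No member was called in Sav1+/- livers, where 0 of all genes passed in limma and 1204 had an unadjusted p under 0.05. Groups did not overlap in 3 of 8 members in Rassf1a-/- livers (Clpx and Afg3l1 higher, Afg3l2 lower), beside 10.9% of all genes (6.55% higher, 4.32% lower). For the double genotype it was 2 of 8 (Clpx higher, Afg3l2 lower), beside 10.8% (6.28% higher, 4.49% lower). Against Sav1+/- it was 1 of 8 (Clpx higher), beside 6.46% (5.03% higher). In Sav1+/- livers against wild type it was 0 of 8, beside 4.68%, and over all arrays with against without Rassf1a it was 1 of 8 (Clpx), beside 0.776% (0.601% higher). The median averaged difference of the 8 was +0.14, beside +0.03 over all genes. It counts Clpx, which was chosen for differences that enter it. The other members ran from -0.26 (Afg3l2) to +0.38 (Oma1).

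**Figure D2:**
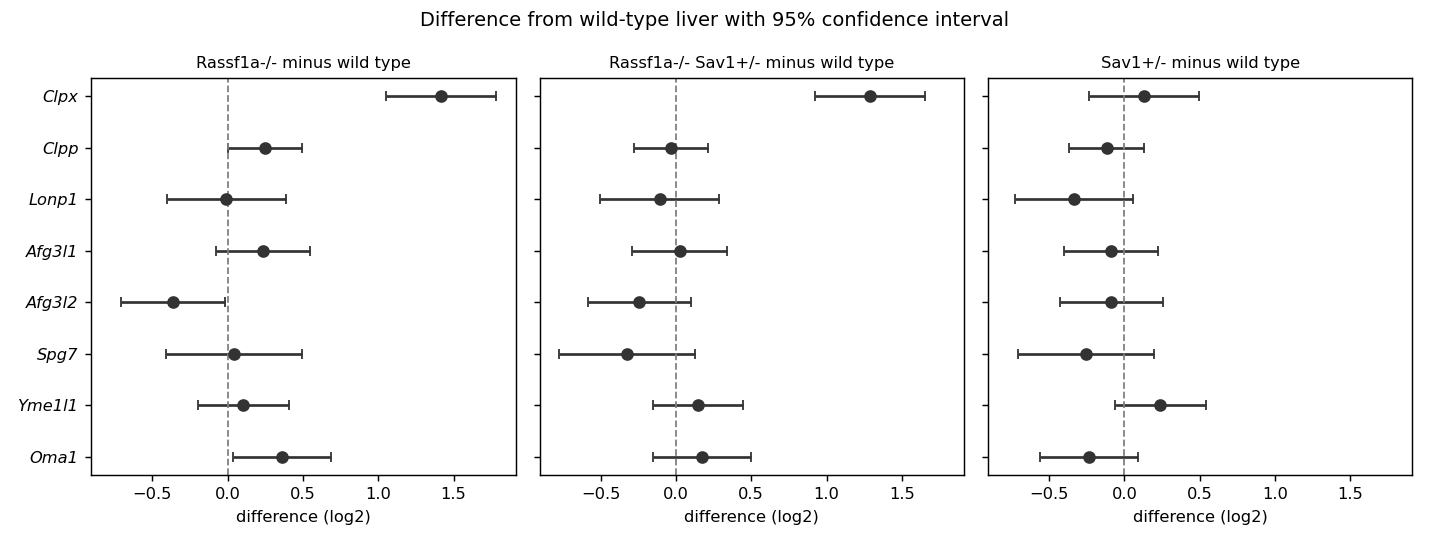
Difference from wild-type liver on the log2 scale with its 95% confidence interval (n = 4 arrays per genotype) for the 8 genes, in 1 panel per altered genotype. The Clpx intervals run from 1.05 to 1.79 in Rassf1a-/- and from 0.92 to 1.65 in double-genotype livers; Clpx was chosen for these differences.

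Within genotypes the 8 genes tended to vary in the same direction. After each genotype mean was taken away, the correlation over the 16 arrays was positive in all 28 pairs of members, with a median r of 0.54 and a range of 0.20 (Afg3l2 and Spg7) to 0.82 (Lonp1 and Afg3l2). Members of a pair share their array and its scaling, so r is a description. Pairs of other genes were not measured for comparison. By within-genotype r with Clpx, the other members ranked from 330 (Lonp1) to 4643 (Oma1) among the 13152 genes, so many genes outside the family followed Clpx as closely. Over the 12 arrays other than Sav1+/-, chosen for this after the values were seen, 24 of the 28 pairs were positive, with a median r of 0.33 and a range of -0.36 to 0.77. Sav1+/- replicate 1 held the lowest of the 16 values in 7 of the 8 genes, and replicate 2 the highest in 3. Across the members, the median deviation from the genotype mean was -0.28 in replicate 1 and +0.27 in replicate 2. The median over all genes was -0.15 and +0.09, so it leaned the same way in these arrays. In an alternative fit that weighted the arrays, both had the lowest weights, at 0.28 each, and the others had 0.45 or more.

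**Figure D3:**
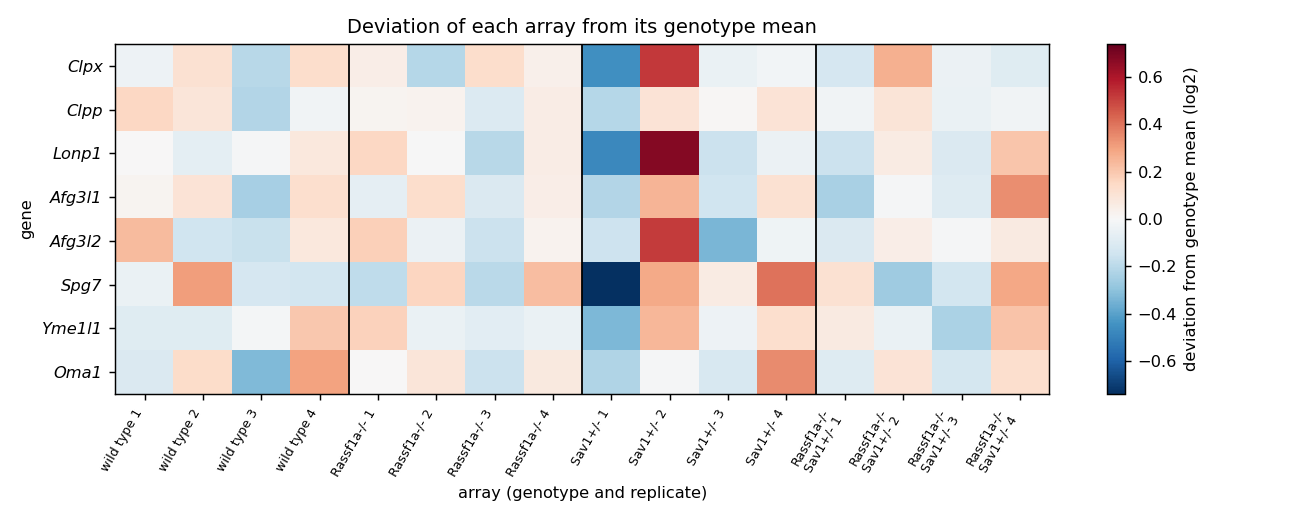
Deviation of each array from its genotype mean (log2, colour) for the 8 genes (rows) over the 16 arrays (columns, by genotype and replicate). Sav1+/- replicate 1 lies below its genotype mean in all 8 genes and replicate 2 above it in 7 of 8.

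The genes whose pattern was most like that of Clpx over the 16 arrays were not proteases. The highest Pearson r among all genes tested belonged to Denn2b (0.98), which encodes a DENN-domain protein, Pnrc1 (0.98), a nuclear receptor coactivator, and Dtx4 (0.97), a ubiquitin ligase; Spearman's rho was 0.97, 0.94 and 0.89. Next came Arntl (0.97), the gene of the clock activator BMAL1, the choline kinase gene Chka (0.96) and Septin9 (0.96), a cytoskeletal GTPase gene. The Arntl means in wild-type and Sav1+/- livers, 6.71 each, lie below the filter level of 7.16 to 7.44. The lowest r belonged to Usp2 (-0.93), Ciart (-0.93), Coq10b (-0.91), Dbp (-0.90), Tef (-0.90) and Per3 (-0.89), of which all but Coq10b are clock genes or clock outputs. The 16 points fall into arrays with and without Rassf1a, and this division sets most of each r. Taken within genotypes, r with Clpx was 0.85 for Denn2b, 0.76 for Pnrc1 and 0.67 for Arntl, but -0.16 for Usp2 and -0.11 for Per3. Among members, r with Clpx over the 16 arrays ran from -0.38 (Afg3l2) to 0.71 (Oma1).

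By deviations from the genotype means alone, the genes most like Clpx were Arsb (r = 0.92), a lysosomal sulfatase gene, Helz2 (0.91), Rev3l (0.89), Tecr (0.89) and Ces2g (0.89). None of these 5 was called in either comparison of a Rassf1a-/- genotype with wild type. Their r over all 16 arrays was lower, from 0.35 for Tecr to 0.58 for Rev3l.

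**Figure D4:**
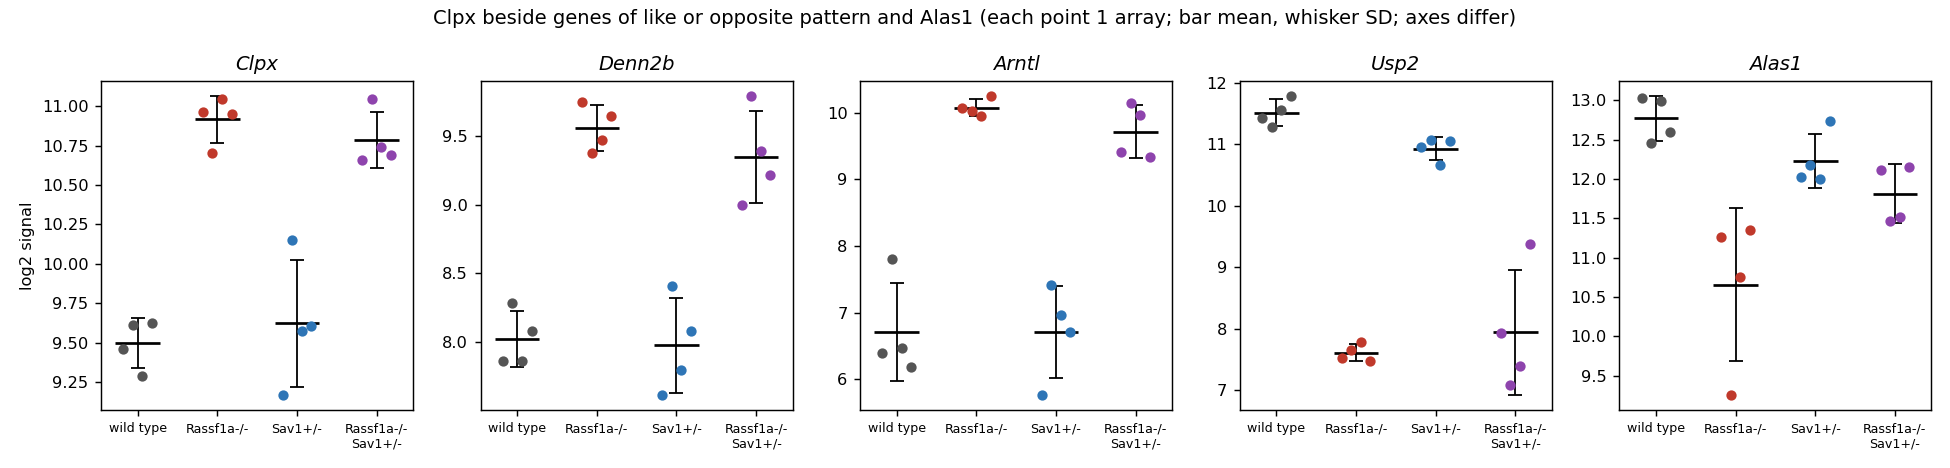
Log2 signal of Clpx, of Denn2b and Arntl (high r with Clpx), of Usp2 (low r) and of Alas1 in the 4 genotypes; each point is 1 array, the bar the mean and the whisker the SD, and the vertical axes differ. Arrays without Rassf1a lie above the others in Clpx, Denn2b and Arntl and below them in Usp2, while in Alas1 the genotypes overlap in part.

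Of the 17 clock genes measured from a list of 21, 3 rose and 10 fell with Rassf1a loss averaged over the Sav1 genotypes, beside 2.23% of all genes called. The list was chosen with earlier results of these data known, so this count is a description. Arntl rose by 3.19 (SE 0.24) on the log2 scale and Clock, which encodes its partner, by 1.01 (SE 0.15, adjusted p = 0.000969, limma). The Arntl means of 6.71 in wild-type and 6.71 in Sav1+/- livers lie below the filter level of 7.16 to 7.44. Arntl thus passed the filter through the arrays without Rassf1a, where it is high, and the size of its rise is uncertain. Usp2 was at -3.44 (SE 0.23), Per3 at -2.27 (SE 0.23) and Per2 at -1.71 (SE 0.20). Clpx and these clock genes both differed between the genotypes, a description since both were chosen with results of these data known. The part of clock phase in the Clpx level was not tested. Nfil3, a repressor gene of clock outputs, rose (+0.82) but lost its call without a filter (adjusted p = 0.0724), in the 11 low-Y arrays alone (0.0676) and on leaving out any of 11 single arrays (up to 0.0954). Of the genes that fell, Nr1d2 (-0.71, adjusted p = 0.113) and Bhlhe40 (-0.63, adjusted p = 0.153) were not called in the low-Y arrays alone.

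Haem synthesis is the pathway in which CLPX acts on the enzyme ALAS. Alas1, which encodes its liver form, was the only gene called of 10 measured from a list of 11, in both Rassf1a-/- livers and the averaged comparison. Its arrays read 13.03, 12.46, 12.99 and 12.60 in wild-type livers and 11.27, 9.26, 10.76 and 11.35 in Rassf1a-/- livers. It fell by 2.11 (SE 0.35, adjusted p = 0.00560), and the lowest array, replicate 2, was the one of high Y-linked signal. Sav1+/- livers averaged 12.23 ± 0.34 (SD, n = 4), and the double-genotype arrays read 12.12, 11.47, 11.51 and 12.15. The double-genotype arrays all lay below wild type, without passing (-0.96, SE 0.35, adjusted p = 0.236). Against Sav1+/- livers the double genotype was at -0.42 (SE 0.35, adjusted p = 0.621), with overlap. Averaged over the Sav1 genotypes, Alas1 fell by 1.27 (SE 0.25, adjusted p = 0.0107), most of it from the Rassf1a-/- livers with both Sav1 copies. The interaction was +1.69 (SE 0.50) and did not pass (adjusted p = 0.343, limma). The other 9 genes of the list did not pass. Abcb10, a transporter gene of the inner membrane, had +0.26, and Fech, whose product inserts the iron, had -0.19.

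Alas1 and Clpx lie on the same chromosome as Rassf1. By the order of genes in the RefSeq table, 213 measured genes lie between Clpx and Rassf1, Alas1 among them. Alas1 was the only one of these called in Rassf1a-/- livers (0.469% of the 213, beside 0.700% of all genes), and none was called in the double genotype. Of the 10 measured genes next to Clpx, 5 on each side, none was called in either comparison. The largest difference among them was that of Slc51b, a bile acid transporter gene, in the double genotype (-1.31, SE 0.30, adjusted p = 0.0525).

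Partners and scaffolds of these proteases had 10 measured genes of 11, and all 10 had positive averaged differences with Rassf1a loss (0.06 to 0.44, median +0.14, where 55.1% of all genes were positive). Against wild type, 7 of 10 were positive in Rassf1a-/- livers (median +0.14), 4 of 10 in the double genotype (median -0.01) and 0 of 10 in Sav1+/- livers (median -0.21), so the low Sav1+/- values enter the average. In the averaged comparison 1 passed. Bcs1l, which encodes an AAA protein for assembly of respiratory complex III, rose by 0.44 (SE 0.09, adjusted p = 0.0112). Its means were 9.58 in wild-type and 10.01 in Rassf1a-/- livers, and 9.24 in Sav1+/- and 9.69 in double-genotype livers. In the 11 low-Y arrays alone Bcs1l had +0.51 and an adjusted p of 0.0855. Dele1, whose product is cut by OMA1 under stress, had +0.22 (adjusted p = 0.187), and Stoml2, a scaffold gene of the inner membrane, had +0.15 (adjusted p = 0.360). The Stoml2 means were 10.61 in Rassf1a-/- and 10.31 in wild-type livers, but 10.31 in double-genotype and 10.31 in Sav1+/- livers. Maip1, a partner gene of the m-AAA protease, had +0.15 and Afg1l, another AAA protein gene, had +0.31, neither passing. The Afg1l means of 7.10 in wild-type and 6.98 in Sav1+/- livers lie below the filter level of 7.16 to 7.44, so its size is uncertain. Phb shares its probe set with another gene and was not read.

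Among 13 other mitochondrial proteases and peptidases of 14 listed, none passed in the averaged comparison. Atp23, which encodes an intermembrane-space peptidase, had -0.52 (SE 0.14, adjusted p = 0.0678), and passed with array weights (-0.51, adjusted p = 0.0248), without Sav1+/- replicate 3 (-0.60, 0.0318) and without double-genotype replicate 4 (-0.60, 0.0314). It was called in the double genotype alone, lower by 0.94 against wild type (SE 0.20, adjusted p = 0.0363), with means of 7.07 and 8.02. The mean of 7.07 lies below the filter level of 7.16 to 7.44, so that size is uncertain. The presequence peptidase gene Pitrm1 had +0.28 (adjusted p = 0.247), Parl, for a rhomboid protease, +0.18 (adjusted p = 0.374), and Lactb2 -0.13. The Lactb2 average joins opposite signs. Its means were 12.07 in Rassf1a-/- and 12.01 in wild-type livers, but 11.99 in double-genotype and 12.31 in Sav1+/- livers.

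Of 10 measured genes of known substrates (12 listed), Alas1 alone passed. Eral1, a substrate of CLPP, had +0.23 (adjusted p = 0.322), Opa1, cut by OMA1 and YME1L1, had +0.13, Timm17a, of the import channel, had -0.17 and Smdt1, of the calcium uniporter, had +0.13. For Smdt1 the average joins opposite signs. Its means were 12.22 in Rassf1a-/- and 11.85 in wild-type livers, but 11.71 in double-genotype and 11.81 in Sav1+/- livers. The list had 7 positive and 3 negative averaged values.

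Mitochondrial chaperones and import genes gave 0 calls among 15 genes in the averaged comparison in limma, and 0 of 15 had an unadjusted p under 0.05. Their median difference was +0.01. Against wild type, 11 of 15 were positive in Rassf1a-/- livers (median +0.04). In the double genotype 3 of 15 were positive (median -0.20), as were 3 of 15 in Sav1+/- livers (median -0.14). In the double genotype 4 of 15 had an unadjusted p under 0.05 in limma, beside 1793 of 13152 genes, and none was called. Hspd1, the gene of the matrix chaperonin, had +0.14 and its co-chaperonin gene Hspe1 had -0.15. For Hspe1 the average joins opposite signs. The Hspe1 means were 12.22 in Rassf1a-/- and 12.06 in wild-type livers, but 11.62 in double-genotype and 12.09 in Sav1+/- livers. Trap1 had +0.14, and the import receptor gene Tomm20 had -0.33 (adjusted p = 0.360). The Tomm20 mean was 10.43 in the double genotype, beside 11.28 in wild-type, 11.28 in Rassf1a-/- and 11.09 in Sav1+/- livers.

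Of 6 measured stress response factors (11 listed), Atf5, a transcription factor of the mitochondrial unfolded protein response, rose by 0.45 (SE 0.11, adjusted p = 0.0444). Its call was lost without a filter (0.0892), in the 11 low-Y arrays alone (0.154) and on leaving out any of 13 single arrays (up to 0.112). Atf4 had +0.08, and Asns, a target of ATF4, had +0.83 with a wide error (SE 0.67). The Asns signal was high, at 8.36 to 9.85, in the 5 arrays of high Y-linked signal and at most 6.86 in the other 11. Those 11 all lie below the filter level of 7.16 to 7.44, so Asns passed the filter only through the 5 high arrays. The size of its differences is therefore uncertain. The values of Fgf21 and Psat1 did not pass.

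Markers of mitochondrial content were all measured, 22 of 22, and 17 had positive averaged differences, with a median of +0.11, where 55.1% of all genes were positive. Against wild type, 19 of 22 were positive in Rassf1a-/- livers (median +0.09), 9 of 22 in the double genotype (median -0.01) and 4 of 22 in Sav1+/- livers (median -0.14). Cs, the citrate synthase gene, passed (+0.46, SE 0.09, adjusted p = 0.00948, limma), though not in the 11 low-Y arrays alone (+0.47, adjusted p = 0.127). Its arrays ran from 10.71 to 10.78 in wild-type, 10.99 to 11.20 in Rassf1a-/-, 10.52 to 11.03 in Sav1+/- and 11.21 to 11.52 in double-genotype livers. Ssbp1, which encodes a protein that binds single-stranded mitochondrial DNA, was called in Rassf1a-/- livers alone (+0.57, adjusted p = 0.0199) and had +0.28 on average (adjusted p = 0.0763). Uqcrc2 (+0.21), Uqcrc1 (+0.21) and Polrmt (+0.32) did not pass.

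**Figure D5:**
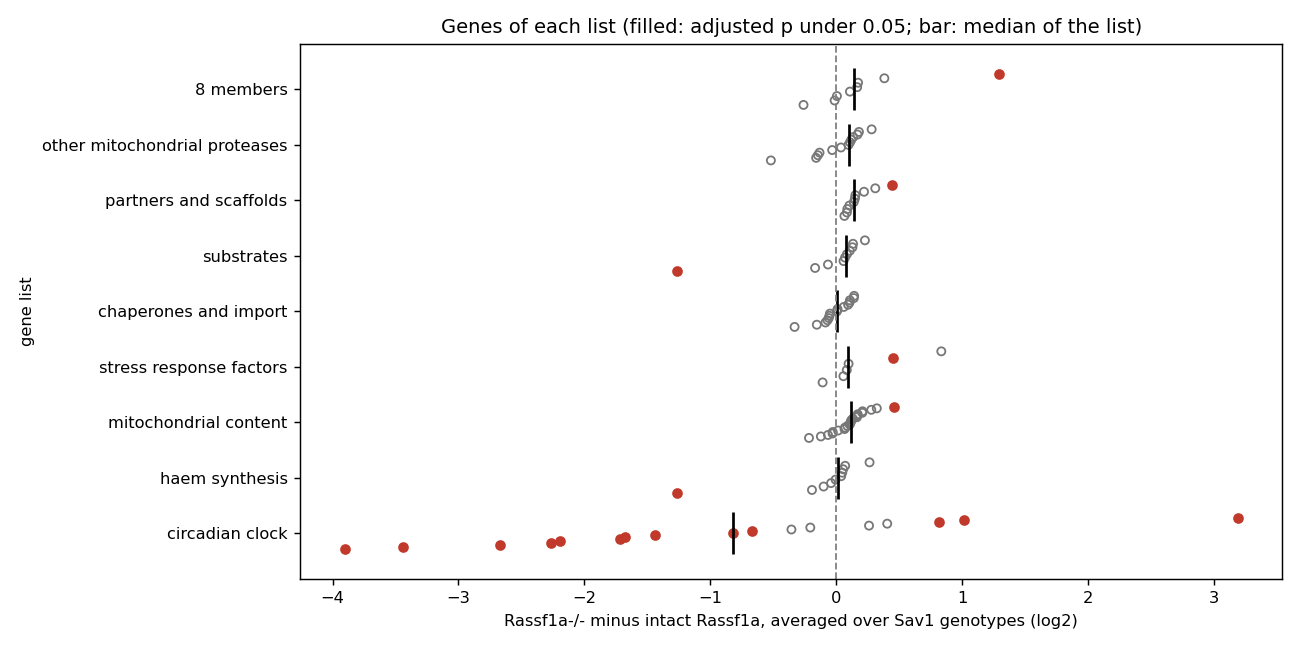
Difference with Rassf1a loss, averaged over the Sav1 genotypes (log2, horizontal axis), for the genes of each list (rows); filled points have an adjusted p under 0.05, open points do not, and the bar is the median of a list. Clpx, chosen for this difference, is the filled point of the 8 members, Alas1 that of the substrates and of haem synthesis, and 13 of the 17 clock genes are filled.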

How the data were processed

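The deposited values are log2 signals, 1 per probe set and array. The submitters' processing notes name Affymetrix Expression Console as the tool; no source used here gives its version, summarisation or normalization. Gene names came from the platform annotation, updated by gene ID through RefSeq (21698 of 21789 probe sets matched). The filter required a signal at or above the 40th percentile of each array's single-gene probe sets in at least 4 arrays, and the one with the highest mean was used per gene. All 13152 genes were fitted with limma 3.58.1 in R 4.3.3 with 4 genotype means, and p-values were adjusted by Benjamini-Hochberg within each of 8 comparisons, with calls under 0.05. Intervals are 95% intervals of the moderated fit. The scripts were tested on simulated data. The number of arrays limits the precision.

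The members, lists and tests were chosen with earlier results of these data known. The naming rule takes the 8 members, the called genes of each list, up to 4 others with the smallest p in the averaged Rassf1a comparison, and the genes most like Clpx by r. Motif positions count from the annotated start. The Asns split, Ssbp1 and Atp23 in single comparisons and the chromosomal neighbours were chosen after values were seen. Replicates are numbered in deposited order. Alternatives were other filters, probe set rules, normalizations, weights, fits and left-out arrays.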

Additional observations from a re-analysis of the deposited data

Results flagged for a closer look

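In the double genotype, Clpp of replicate 2 (10.77) stood apart from the other 3 arrays (10.63 to 10.65), with a gap of 0.838 of the group's range. In Rassf1a-/- livers, Yme1l1 of replicate 1 (10.94) stood apart from the other 3 (10.69 to 10.72), with a gap of 0.877 of the range. Both gaps passed Dixon's 95% critical value for 4 samples, which chance passes in about 1 in 20 groups. With 8 genes in 4 genotypes, 32 groups were examined. Both groups had a small range, and neither gene was called in any comparison of the main analysis.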

How the results depend on the processing

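No paired analysis was possible because replicate numbers are absent from the labels. Clpx kept its direction in Rassf1a-/- and double-genotype livers under all 27 alternatives for each (+1.35 to +1.49 and +1.20 to +1.33). In the 11 low-Y arrays alone, which leaves 2 arrays of the double genotype, Clpx there was +1.22 and below the threshold, so the count of members called was 0 in the double genotype against wild type and 0 against Sav1+/-. The latter was also 0 with only these genotypes fitted. Array weights gave 1 call for the double genotype against Rassf1a-/- (Clpp) and 1 for the averaged Sav1 effect (Lonp1). For the averaged Rassf1a effect the stricter filter gave 2 (Clpx and Oma1), and leaving out 1 array gave 1 to 2, the 2 without Sav1+/- replicate 4.

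Several differences near 0 changed sign, none of them called. Afg3l1 in the double genotype became -0.02 after quantile normalization, -0.02 after median centring and -0.07 with array weights (-0.09 to 0.10 without 1 array). Lonp1 in Rassf1a-/- livers became 0.06 after median centring, 0.05 with array weights and 0.03 with the Y-linked covariate (-0.06 to 0.06 without 1 array). The averaged Rassf1a difference of Spg7 became 0.01 after median centring and 0.11 without the high-Y arrays (-0.14 to 0.05 without 1 array), and that of Yme1l1 became -0.03 after quantile normalization (-0.05 to 0.05). Afg3l2 in Sav1+/- livers became 0.0014 with the covariate and 0.10 without the high-Y arrays (-0.26 to 0.02). Without the high-Y arrays Spg7 in Rassf1a-/- livers became -0.01 (-0.03 to 0.15 without 1 array) and the averaged Atf4 difference -0.02. Leaving out 1 array gave -0.05 to 0.28 for Clpx in Sav1+/- livers, -0.11 to 0.02 for Clpp in the double genotype, and, averaged, -0.03 to 0.17 for Fgf21 and -0.0048 to 0.12 for Psat1. The causes were not tested. Over all genes, calls in the double genotype (108) became 56 with no filter, 176 with the stricter filter, 165 after quantile normalization, 1231 with array weights, 165 with a trended robust fit, 61 with the covariate and 6 without the high-Y arrays. Calls in Rassf1a-/- livers (92) became 898 with array weights, 190 with only these genotypes fitted, 146 with the covariate and 59 without the high-Y arrays. Averaged calls (293) became 444 with the stricter filter, 800 with array weights and 80 without the high-Y arrays. Leaving out 1 array gave 39 (without wild-type replicate 4) to 209 (without Sav1+/- replicate 1) in the double genotype, 54 (without wild-type replicate 3 or Rassf1a-/- replicate 1) to 128 (without Sav1+/- replicate 2) in Rassf1a-/- livers, and 192 (without wild-type replicate 3 or Rassf1a-/- replicate 1) to 572 (without Sav1+/- replicate 2) on average. Without the Sav1+/- arrays, an alternative chosen after seeing the data, the median r over the pairs of members was 0.33.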
